A study of Mus musculus with 12 samples.

Results

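Pyruvate dehydrogenase and the citric acid cycle were followed through 9 genes in perigonadal fat of mice labelled as adipose overexpressors or adipose knockouts of the glucose transporter Glut4. The genes were Pdha1, Dlat and Dld of the pyruvate dehydrogenase complex and Cs, Idh2, Idh3g, Fh1, Mdh1 and Mdh2 of the cycle and its dehydrogenases. Every probe set that the platform annotation assigned to 1 of these genes and to no other was taken, which gave 11 of the 12422 probe sets on the array. Of the 11, 10 passed the filter on mean intensity that left 7454 probe sets for testing, and each of the 9 genes kept at least 1 tested probe set. The gene choice used the pathway and not the measurements of these mice, but it was made with earlier results of the same arrays known.

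Each of 12 Affymetrix arrays held total RNA from the perigonadal adipose tissue of 1 mouse, and the labels give all mice as female, 6 months old and fed freely. The mice labelled overexpressors (n = 3) were FVB mice with a Glut4 transgene driven by the aP2 promoter, and their controls (n = 3) were FVB littermates. The knockouts (n = 3) are labelled as lacking Glut4 in adipose tissue and were compared with mice that carried an aP2-Cre transgene (n = 3), all on a mixed C57B6/FVB/SV129 background. The aP2 gene, Fabp4, is a fatty acid-binding protein gene of adipocytes that is also active in macrophages, so the promoter itself is not limited to fat cells. The lines thus differ in background as well as in genotype, and the knockouts' controls carry a transgene. Nothing in the labels says whether mice of a group came from separate litters, so p-values measure the spread between these mice.

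Pyruvate dehydrogenase stands between glycolysis and the mitochondrial cycle, turning pyruvate into acetyl-CoA. Its E1 enzyme, a tetramer of Pdha1 and Pdhb products, removes the carboxyl group, the E2 core made by Dlat transfers the acetyl group, and the E3 enzyme made by Dld, which is shared with other dehydrogenase complexes, reoxidises the lipoyl arm. In fat cells the cycle also begins lipid synthesis: citrate made by citrate synthase (Cs) can leave the mitochondrion and be split in the cytosol to supply acetyl-CoA for fatty acids.

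The promoter sequences are shown for Cs, Dld and Mdh2, whose RNA varied most closely together from mouse to mouse, and for Mdh1. The only probe set of Mdh1, among the dimmer ones tested, did not follow the others. Each sequence is the 250 bases before the RefSeq transcription start in GRCm38.p6, written 5′ to 3′ on the gene's strand in lower case, with matches to the motifs named below in capitals.
Cs (chr10:128337477-128337726, plus strand): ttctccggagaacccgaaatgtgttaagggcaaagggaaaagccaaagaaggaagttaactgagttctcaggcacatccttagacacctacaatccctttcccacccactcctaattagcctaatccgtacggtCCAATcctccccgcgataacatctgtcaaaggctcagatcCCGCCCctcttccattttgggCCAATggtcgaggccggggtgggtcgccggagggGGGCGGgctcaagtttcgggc
Dld (chr12:31351472-31351721, minus strand): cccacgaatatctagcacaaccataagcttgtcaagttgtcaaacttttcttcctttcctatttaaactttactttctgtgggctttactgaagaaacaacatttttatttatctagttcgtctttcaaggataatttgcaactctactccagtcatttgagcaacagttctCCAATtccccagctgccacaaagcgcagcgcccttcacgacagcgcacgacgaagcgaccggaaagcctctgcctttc
Mdh2 (chr5:135778399-135778648, plus strand): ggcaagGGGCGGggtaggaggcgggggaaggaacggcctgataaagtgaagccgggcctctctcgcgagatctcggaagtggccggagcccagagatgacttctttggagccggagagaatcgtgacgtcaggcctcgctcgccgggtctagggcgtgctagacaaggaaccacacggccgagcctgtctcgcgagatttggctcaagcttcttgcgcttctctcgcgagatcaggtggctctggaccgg
Mdh1 (chr11:21571935-21572184, minus strand): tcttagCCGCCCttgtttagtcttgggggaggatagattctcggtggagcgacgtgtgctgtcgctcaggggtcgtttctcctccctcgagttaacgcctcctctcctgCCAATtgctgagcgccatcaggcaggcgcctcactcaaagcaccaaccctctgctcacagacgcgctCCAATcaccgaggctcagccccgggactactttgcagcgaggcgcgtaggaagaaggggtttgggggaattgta
The GC box was searched as the letters GGGCGG, and the CCAAT box as the letters in its name. The element of estrogen-related receptors was searched as AAGGTCA, and the core of the NRF1 site as GCATGCG. Both strands were read, and no match overlapped another in the 9 windows. These receptors and NRF1 are known regulators of nuclear genes for mitochondrial proteins. All 9 genes had a promoter entry. A GC box lay in 6 of the 9 windows and in 32.7% of 32851 promoter windows of the same length, and a CCAAT box in 5 of the 9 and in 33.8%. The receptor element was in 0 of 9 and in 4.08% of all windows, and the NRF1 core in 0 of 9 and in 3.02%. In the sequences printed, Cs held both a GC box and a CCAAT box more than once, Dld a single CCAAT box, Mdh2 a single GC box and Mdh1 both kinds. Base composition ran from 43.6% G and C in the Dld window to 67.2% in that of Idh2, beside a median of 52.4% over all windows. Cs and Mdh1, whose probe sets behaved differently on the arrays, thus shared both of the common motifs, and a match to these letters is a description of the sequence only.

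The deposited values are intensities on a linear scale, and no level is compared between probe sets or between the lines, because the smallest intensity was 21.9 on every array of the overexpressor line and 22.27 on every array of the knockout line. Fold changes are differences of mean log2(intensity + 36.92), with a standard error (SE) and p-values from limma, adjusted by Benjamini-Hochberg over 7454 probe sets and called under 0.05. Array medians were lowest for overexpressor 1 (188) and knockout control 3 (186) and ran from 203 to 219 on the other arrays. Overexpressor control 3 correlated less with its own group than with the overexpressors over the tested probe sets (0.955 against 0.971), and smaller differences of the same kind held for knockout 1, knockout control 1 and knockout control 2. The targeted gene, Slc2a4, read 625, 1109.7 and 1042 on the arrays labelled overexpressor and 639, 583 and 1212 on their controls, and 378, 365 and 363 on the arrays labelled knockout against 416, 514 and 614. The log2 fold changes were 0.22 (SE 0.26, limma adjusted p = 0.930) and -0.43 (SE 0.26, limma adjusted p = 1.0). Its level was therefore not separated in the overexpressor line, where the array labelled overexpressor 1 read like controls 1 and 2 and the array labelled overexpressor control 3 was the highest of all 6. It was lower on each knockout array than on each control, at 0.717 of the control mean. The target gene thus goes against the labels of 2 arrays of the overexpressor line. Whether those labels were exchanged was not tested. In all that follows, overexpressor and control name the label of an array, and every direction in that line rests on those labels. Whether this probe set reads the transgene's message is not stated in the labels. The fat cell marker Adipoq read between 5196 and 6986 on all 12 arrays, so each array carried the marker of its labelled tissue.

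No member passed the test in either comparison. In whole tissue, fewer cells of a type and less RNA per cell cannot be told apart, and this holds for every value that follows. On the overexpressor-labelled arrays, by each gene's brightest probe set, the subunits particular to pyruvate dehydrogenase had higher means than in the controls. Dld and the mitochondrial cycle enzymes had means below those of the controls. The dimmer Dlat probe set averaged 157 on the overexpressor-labelled arrays against 167 in the controls. In the knockouts, by the brightest probe sets, 8 of the 9 genes had means above the controls, by 1.04 to 1.39 times. Of all tested genes, 64% had a log2 fold change above 0 in that comparison. For 3 members (Cs, Idh2 and Idh3g) all 3 knockout arrays were above all 3 control arrays, beside 5.62% of all tested probe sets. The separation of Idh3g was lost after quantile normalization.

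**Figure D1:**
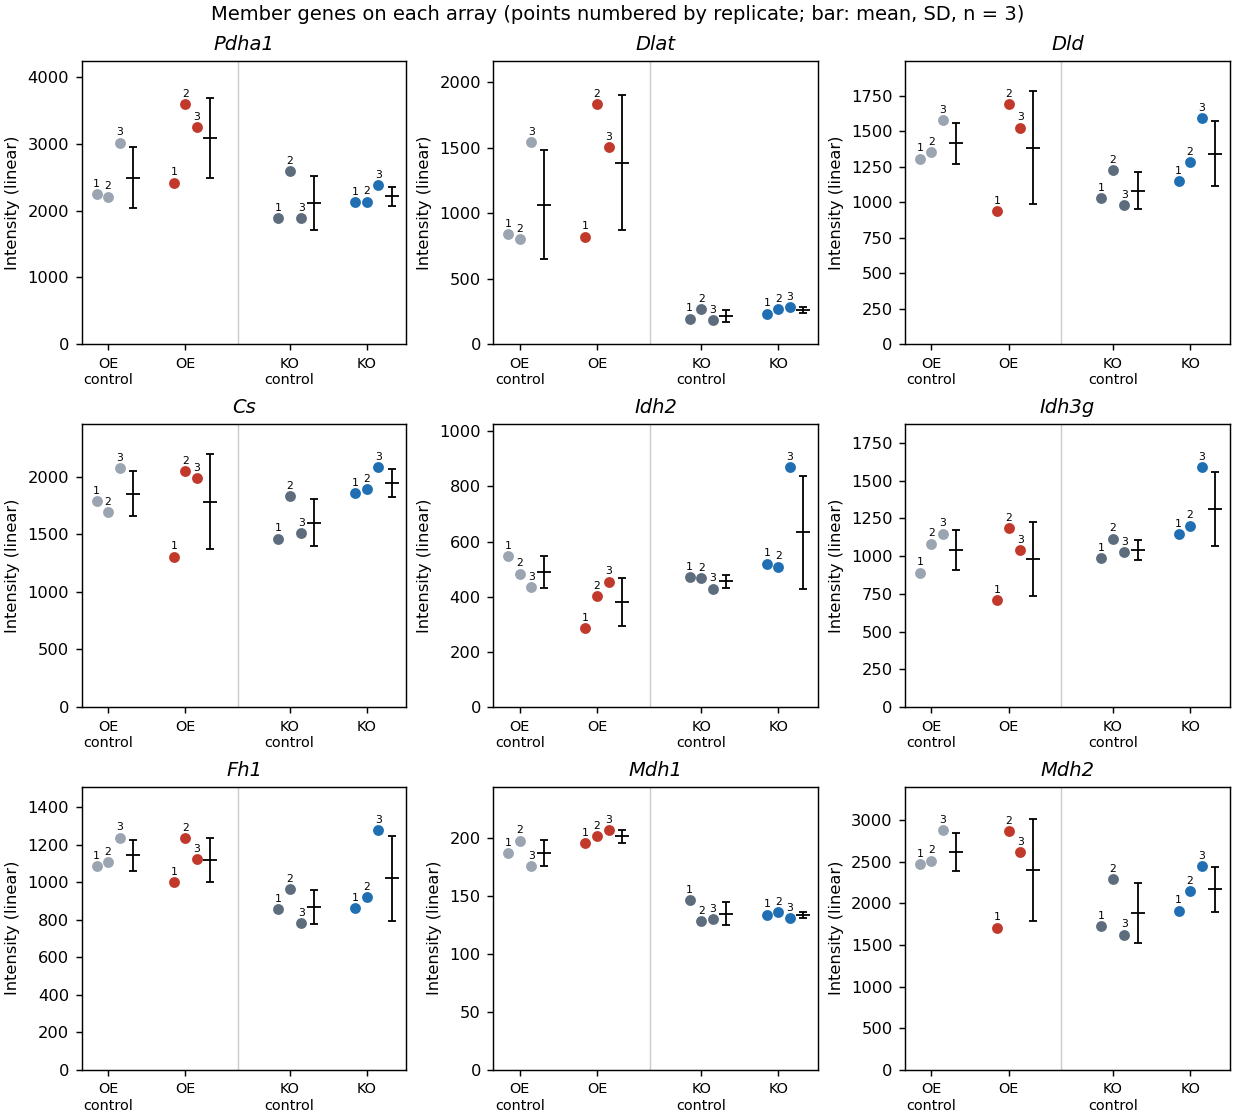
Deposited linear intensity (vertical axis, starting at 0) of each member gene's brightest probe set on each array, with points numbered by replicate and the mean and SD of the 3 arrays of a group beside them; OE is overexpressor and KO knockout, and a grey line parts the lines, whose levels are not compared. Overexpressor 1 is the lowest point of its line for Dld, Cs, Idh2, Idh3g, Fh1 and Mdh2, and knockout 3 the highest of its line for Idh2 (870.4), Idh3g, Fh1, Dld, Cs, Mdh2 and Dlat.

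Within the complex, Pdha1 encodes the catalytic E1 alpha subunit, which is also the site of its inhibition by phosphorylation. On probe set 98102_at, Pdha1 read 2419, 3592 and 3256 on the overexpressor-labelled arrays and 2249, 2211 and 3018 in their controls. Overexpressors 2 and 3 were above every control, but overexpressor 1 lay among the controls and control 3 stood well above the other 2, so the groups overlapped. The fitted log2 fold change was 0.30 (SE 0.18, 95% interval -0.09 to 0.69, limma adjusted p = 0.913), and it ran from 0.184 without overexpressor 2 to 0.465 without overexpressor 1. In the knockout line Pdha1 read 2122, 2135 and 2379.7 against 1883, 2587 and 1893, with control 2 above every knockout, and the log2 fold change was 0.07 (SE 0.18, limma adjusted p = 1.0).

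Dlat encodes the lipoyl-bearing E2 acetyltransferase at the centre of the complex. On its brighter probe set, 96746_at, Dlat read 821, 1829.7 and 1501 on the overexpressor-labelled arrays and 841, 805 and 1543 in their controls. The arrays fell into a low set (overexpressor 1 and controls 1 and 2) and a high set (overexpressors 2 and 3 and control 3), the same division as for Pdha1, with the groups overlapping. This gave a log2 fold change of 0.36 (SE 0.28, 95% interval -0.26 to 0.98, limma adjusted p = 0.913). It ran from 0.126 without overexpressor 2 to 0.686 without overexpressor 1, and averaged over both Dlat probe sets it was 0.142. With overexpressor 1 and control 3 both removed, a choice made after their values were seen, it was 0.979 with a limma adjusted p of 0.056. That was the lowest of any member under any setting run, and this removal takes out the 2 arrays whose Dlat values lay farthest from the rest of their groups. In the knockout line it read 234, 269.8 and 282 against 196, 266 and 183, a log2 fold change of 0.26 (SE 0.28, limma adjusted p = 1.0).

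A second, dimmer Dlat probe set, 96745_at, did not share that pattern. It read 170.4, 156 and 143 on the overexpressor-labelled arrays and 154, 172 and 174 in their controls, and 202, 176 and 149 in the knockouts against 195, 181 and 213. Its log2 fold changes were -0.07 and -0.14 (SE 0.11 each, limma adjusted p = 0.940 and 1.0). Its mean intensity lay at the 43.2 percentile of all probe sets, against 86.9 for the brighter one, and which Dlat transcript each reads is not given in the sources used here.

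Dld encodes the E3 dihydrolipoamide dehydrogenase, which also serves the 2-oxoglutarate and branched-chain dehydrogenases. Its probe set, 97502_at, read 937, 1689.6 and 1525 on the overexpressor-labelled arrays and 1306, 1355 and 1580.2 in their controls. Overexpressor 1 was the lowest of the 6 arrays and overexpressor 2 the highest, so the controls sat inside the range of the overexpressors. Its log2 fold change was -0.07 (SE 0.20, limma adjusted p = 0.973). In the knockout line Dld read 1149.7, 1280.1 and 1593 against 1029.6, 1227 and 982, with knockout 1 below control 2, and the log2 fold change was 0.30 (SE 0.20, limma adjusted p = 1.0).

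Pdhb, the E1 beta subunit and partner of Pdha1, was measured on the same arrays as one of the further subunits listed below. It read 1302, 2951 and 2537 on the overexpressor-labelled arrays against 1619, 1035 and 2124 in their controls, a log2 fold change of 0.48 (SE 0.32, limma adjusted p = 0.913). Overexpressors 2 and 3 again stood above every control and overexpressor 1 did not. Over the 6 arrays of the overexpressor line, Pdhb correlated with Pdha1 at r = 0.94 and with Dlat at 0.93, with Cs at 0.74, Dld at 0.70 and Mdh2 at 0.59. In the knockout line it correlated with Cs (0.89) and Mdh2 (0.80) about as closely as with Pdha1 (0.86) and Dlat (0.84). In the 6 arrays of the overexpressor line, Slc2a4 itself correlated with Dlat at r = 0.97, with Pdha1 at 0.92 and with Pdhb at 0.89. The other members ranged from 0.66 (Idh3g) to 0.82 (Fh1), apart from Idh2 at 0.01 and Mdh1 at -0.11. In the knockout line the Slc2a4 correlations of all 9 members were negative, from -0.61 (Dld and Idh2) to -0.17 (Pdha1), and that of Pdhb was -0.22. Both groups of a line enter these values, which therefore include the difference between the groups. Slc2a4 read 363 to 378 on the knockout arrays and 416 to 614 on their controls, while 8 of 9 members were higher in the knockouts. Correlation within a group was not tested. The Pdhb and Slc2a4 correlations were looked at after the values were seen, they share arrays and their scaling, and they describe 6 mice per line.

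Citrate synthase, Cs, catalyses the entry step of the cycle and is a common measure of mitochondrial content. Its probe set, 99666_at, read 1307, 2053 and 1986 on the overexpressor-labelled arrays and 1789, 1696 and 2074 in their controls, with overexpressor 1 lowest and the groups overlapping. The log2 fold change was -0.08 (SE 0.17, limma adjusted p = 0.966). In the knockouts Cs read 1858, 1894 and 2085 against 1463, 1834 and 1509.7 in the controls. Every knockout exceeded every control, although knockout 1 exceeded control 2 by little. The means were 1950 ± 122 and 1600 ± 202 (SD, n = 3), and the log2 fold change was 0.28 (SE 0.17, 95% interval -0.08 to 0.64, limma adjusted p = 1.0).

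Idh3g encodes the gamma subunit of the NAD-dependent isocitrate dehydrogenase, the regulated oxidative step of the cycle. On probe set 93029_at it read 708, 1187 and 1042 on the overexpressor-labelled arrays and 891, 1083 and 1149 in their controls, a log2 fold change of -0.11 (SE 0.19, limma adjusted p = 0.948). In the knockouts it read 1145, 1202 and 1590.3 against 985, 1115 and 1028. All knockouts were above all controls, with knockout 3 well above the rest, and the log2 fold change was 0.31 (SE 0.19, 95% interval -0.09 to 0.71, limma adjusted p = 1.0). The separation of the knockout groups was lost after quantile normalization, where control 3 came above knockout 2. A second Idh3g probe set, 162478_r_at, was too dim to be tested, with intensities of 39 to 96 over the 12 arrays and overlapping groups in both lines.

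Idh2 encodes the mitochondrial NADP-dependent isocitrate dehydrogenase, which makes mitochondrial NADPH rather than NADH. On probe set 95693_at it read 287, 403 and 455 on the overexpressor-labelled arrays and 548, 484 and 434 in their controls. Only overexpressor 3 came above a control, and the means were 382 ± 86 and 489 ± 57.3 (SD, n = 3). The log2 fold change was -0.34 (SE 0.20, 95% interval -0.78 to 0.09), with an unadjusted p of 0.106 and a limma adjusted p of 0.913, and it was -0.17 without overexpressor 1. In the knockouts Idh2 read 520.2, 509 and 870.4 against 471, 468 and 429, so that every knockout was above every control and knockout 3 far above all. Here the log2 fold change was 0.40 (SE 0.20, 95% interval -0.03 to 0.83), with an unadjusted p of 0.064 and a limma adjusted p of 1.0, and it was 0.16 without knockout 3.

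Fh1 encodes fumarase. Its probe set, 99148_at, read 1000.25, 1236 and 1123 on the overexpressor-labelled arrays against 1087, 1109 and 1238, a log2 fold change of -0.03 (SE 0.15, limma adjusted p = 0.981). In the knockouts it read 863, 922 and 1281 against 857, 964 and 782, with knockouts 1 and 2 inside the range of the controls. The log2 fold change was 0.21 (SE 0.15, limma adjusted p = 1.0), and it was 0.04 without knockout 3.

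Mdh2 encodes the mitochondrial malate dehydrogenase that closes the cycle, and Mdh1 the cytosolic enzyme of the malate-aspartate shuttle. On probe set 93991_at, Mdh2 read 1707, 2869 and 2617 on the overexpressor-labelled arrays against 2469, 2513 and 2885, a log2 fold change of -0.16 (SE 0.19, limma adjusted p = 0.930). Overexpressor 1 was the low array and the other 2 lay within the range of the controls. In the knockouts Mdh2 read 1911, 2142 and 2448 against 1725, 2293 and 1623, a log2 fold change of 0.21 (SE 0.19, limma adjusted p = 1.0) with overlapping groups.

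Mdh1 stood apart from the other members. On probe set 97508_at it read 196, 202 and 207 on the overexpressor-labelled arrays against 187.5, 198 and 176, and 134, 136 and 131 in the knockouts against 146, 128 and 129.9. The overexpressor groups overlapped by overexpressor 1 and control 2 as deposited, and did not overlap once array medians were subtracted or quantiles equalised. The log2 fold changes were 0.09 (SE 0.09, 95% interval -0.10 to 0.28, limma adjusted p = 0.924) and -0.01 (SE 0.09, limma adjusted p = 1.0). Overexpressor 1, the low array for the mitochondrial enzymes, was near the middle for Mdh1. The probe set was among the dimmer ones tested, at the 41.5 percentile of mean intensity, so the added constant shrinks its fold changes more than those of the bright members.

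**Figure D2:**
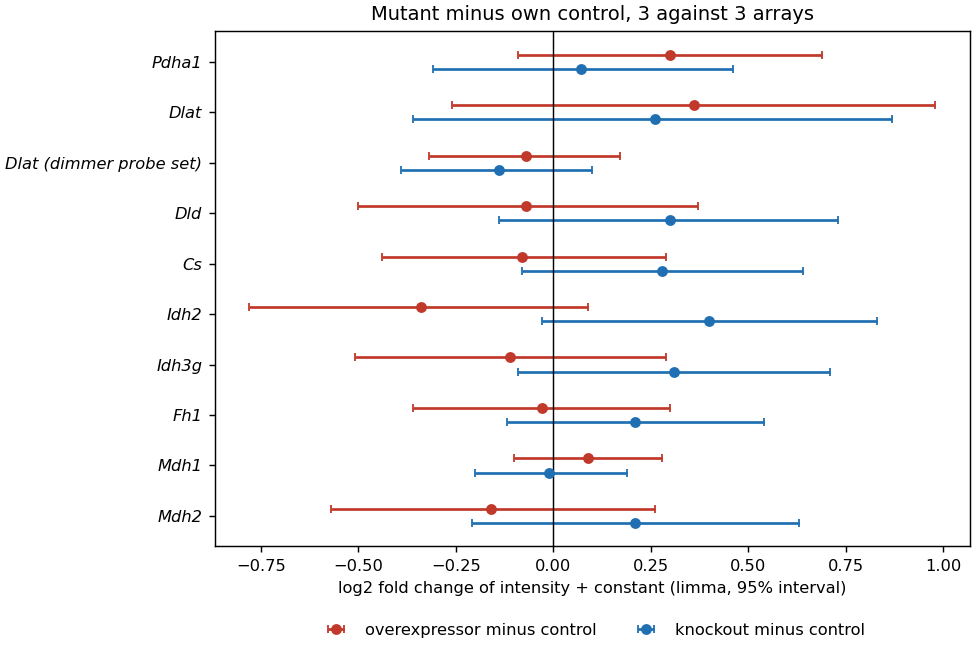
Log2 fold change of intensity plus the constant (horizontal axis) for each tested member probe set, overexpressor minus control in red and knockout minus control in blue, as limma estimates with 95% intervals from 3 against 3 arrays. Every interval spans 0. On the overexpressor-labelled arrays Pdha1 and the brighter Dlat probe set lie to the right, and the dimmer Dlat probe set lies at -0.07. Idh2 lies at -0.34 on the overexpressor-labelled arrays and 0.40 in the knockouts.

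Against the whole array, the members' counts were read beside the background. Of all tested probe sets, 0.0805% passed in the overexpressor comparison and 0.121% in the knockout comparison at a limma adjusted p under 0.05, beside 0 of the 10 member probe sets in each. At an unadjusted p under 0.05 the shares were 4.76% and 3.98%, again beside 0 members. In the overexpressor comparison, groups that did not overlap were found in 2.29% of probe sets with the mutant higher and in 6.48% with the mutant lower, and in 0 members. In the knockout comparison they were found in 5.62% with the mutant higher, where the members had 3 of 10 (Cs, Idh2 and Idh3g), and in 1.89% with the mutant lower, where they had 0. The smallest two-sided p of an exact permutation test of 3 against 3 arrays is 0.1, and no such test was used for a single gene.

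By direction, 3 of the 9 members had a log2 fold change above 0 on the overexpressor-labelled arrays (Pdha1, Dlat and Mdh1), beside 28.7% of 5707 tested genes, and the member median was -0.07 beside -0.075 over those genes. That median rested on single arrays: without overexpressor 1 it was 0.11, with 8 of 9 genes above 0, without overexpressor control 3 it was 0.01, without overexpressor 2 it was -0.19, and after quantile normalization it was 0.05. Pdha1, Dlat and Mdh1 kept a positive value and Idh2 a negative one under every setting run. In the knockouts 8 of 9 members were above 0, beside 64% of tested genes, and the median was 0.26 beside 0.045, staying between 0.164 and 0.359 as single arrays were left out. Its lowest value came without knockout 3 and its highest without knockout control 2, and it was 0.17 without knockout control 3. After array medians were subtracted or quantiles equalised the knockout medians were 0.22 and 0.21.

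The effects of both mutants were also compared with each other as the knockout effect minus the overexpressor effect. Idh2 showed the largest such difference among the members, 0.75 on the log2 scale (SE 0.28, 95% interval 0.14 to 1.36), with an unadjusted p of 0.020 and a limma adjusted p of 0.869. Unadjusted, 4.95% of all tested probe sets were under 0.05 in this contrast, and 0.161% passed after adjustment, so 1 member of 10 probe sets under 0.05 unadjusted and 0 after adjustment is not set apart from that background. Values for Idh3g (0.42), Mdh2 (0.37), Dld (0.36), Cs (0.36) and Fh1 (0.24) were positive, those for Pdha1 (-0.23), Dlat (-0.10) and Mdh1 (-0.10) negative, and their limma adjusted p-values lay between 0.893 and 0.966. The median over all tested genes in this contrast was 0.124 as deposited and 0.029 after subtraction of array medians, and the members' values are read against that offset.

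The clearest regularity of the members was across mice and not between the groups as labelled. Each log2 value was expressed as its deviation from the mean of the 6 arrays of its line, and each gene was set against the mean of the other 8 over the 12 arrays. Dld followed that mean with Pearson's r = 0.99 (Spearman's rho 0.99), Cs with 0.94 (0.96), Mdh2 with 0.93 (0.94), Idh3g with 0.91 (0.87) and Fh1 with 0.84 (0.94). Dlat (0.75, rho 0.83) and Pdha1 (0.70, rho 0.75) followed it less closely, and Idh2 (0.56, rho 0.50) less again. Mdh1 did not follow it (-0.16, rho -0.08). These are descriptions: the arrays share their normalization, and the deviations include the effect of genotype within a line.

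The arrays at the extremes were overexpressor 1, with a mean member deviation of -0.37, and knockout 3, with 0.31. Overexpressor 2 (0.23), overexpressor control 3 (0.15) and overexpressor 3 (0.13) lay above their line mean, and knockout control 3 (-0.22) and knockout control 1 (-0.17) below it. The arrays above the mean of the overexpressor line were those with its highest Slc2a4 intensities (1109.7, 1212 and 1042). Whether labels in that line were exchanged was not tested. Without the 2 extreme arrays the correlation with the other members was 0.98 for Dld, 0.92 for Cs, 0.89 for Mdh2 and Fh1, 0.81 for Idh3g, 0.80 for Dlat and 0.78 for Pdha1, but 0.02 for Idh2, whose relation rested on those arrays. Equalising the quantiles of the arrays in each line, which removes differences in overall brightness, left 0.96 for Dld, 0.87 for Mdh2, 0.84 for Cs, Idh3g and Dlat, 0.70 for Fh1 and 0.64 for Pdha1, with 0.18 for Idh2 and -0.29 for Mdh1. Brightness moved with the pattern, since the dimmest array of each line was also its lowest for the member mean, and its part in the remaining correlation was not tested beyond that step.

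**Figure D3:**
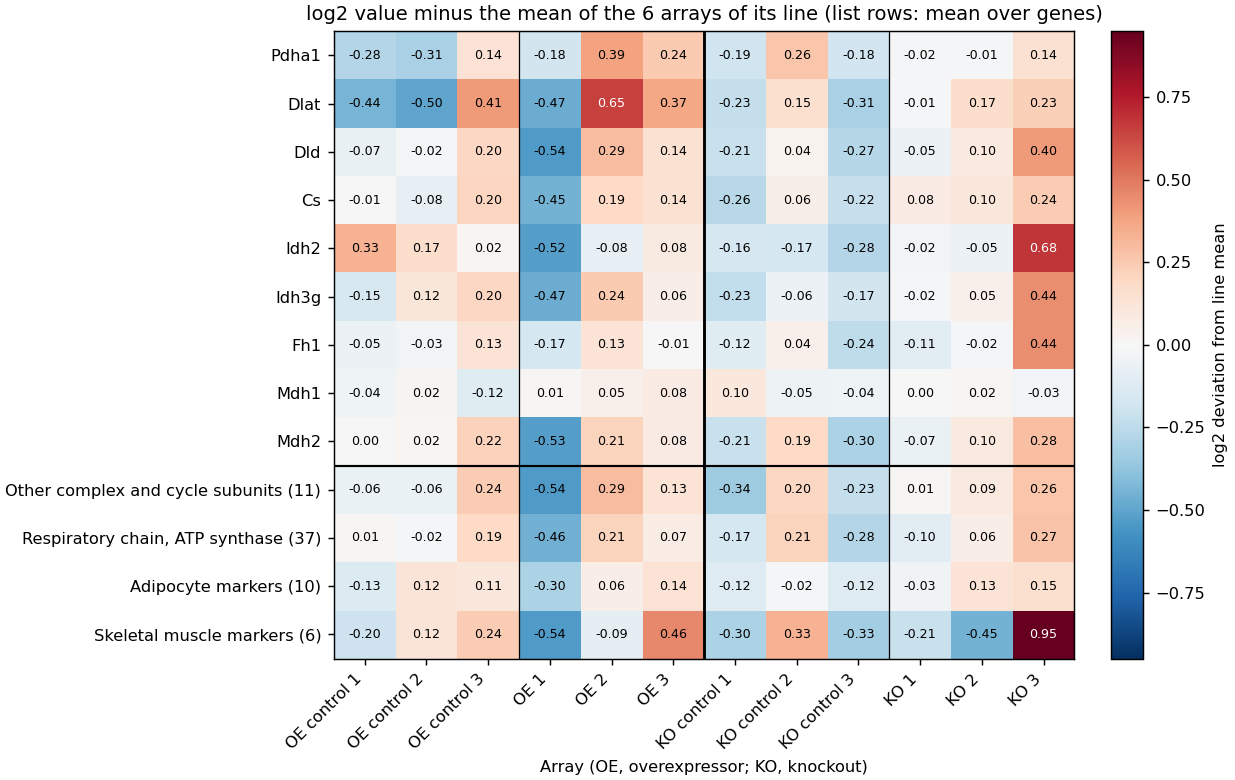
Log2 deviation of each array (columns, grouped by line and genotype) from the mean of the 6 arrays of its line, for each member gene and, below the line, as the mean over the tested genes of 4 other lists; red is above and blue below the line mean. The column of overexpressor 1 is blue for every mitochondrial member and that of knockout 3 red, while Mdh1 stays between -0.12 and 0.10 on all arrays; Pdha1 and Dlat are low on overexpressor controls 1 and 2 where the other members lie between -0.15 and 0.12 or, for Idh2, at 0.33 and 0.17.

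Over the 12 arrays, Dlat was the member closest to Pdha1 and Pdha1 the one closest to Dlat, with r = 0.94. Their correlation was 0.98 in the overexpressor line and 0.85 in the knockout line, where both were closer to Mdh2 (0.91 for Pdha1 and 0.97 for Dlat). Dld, Cs and Mdh2 correlated with one another at 0.95 to 0.96. Pdha1 correlated with Idh2 at 0.10 and Dlat with Idh2 at 0.19. On overexpressor controls 1 and 2, Pdha1 deviated by -0.28 and -0.31 and Dlat by -0.44 and -0.50, while Dld deviated by -0.07 and -0.02 and Cs by -0.01 and -0.08. Idh2 deviated by 0.33 and 0.17 on the same arrays. On overexpressor 1, Pdha1 deviated by -0.18 and Dld by -0.54, and on overexpressor 2, Dlat deviated by 0.65 and Dld by 0.29.

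Outside the members, 37 tested genes of the respiratory chain and ATP synthase, which take up the NADH the cycle makes, were read. Their mean deviation correlated with that of the members at r = 0.94 over 12 arrays (rho 0.95). The correlation was 0.88 without the 2 arrays farthest from this list's own median, overexpressor 1 and knockout control 3. The other 11 subunits of the complex and cycle gave 0.95, and 14 other mitochondrial genes 0.86. The adipocyte markers gave 0.85 and the skeletal muscle markers 0.75, while fibroblast (0.03), macrophage (-0.06) and smooth muscle markers (-0.16) did not follow the members. Each list was also read without the 2 arrays farthest from its own median. The other subunits then gave 0.94, the other mitochondrial genes 0.69, adipocyte markers 0.75 and skeletal muscle markers 0.6. Fibroblast, macrophage and smooth muscle markers then gave 0.23, -0.37 and 0.07. The 5 single genes most like the member mean, of 5698 compared, were Chchd3 (0.969), a protein of the inner mitochondrial membrane, Atp6v1e1 (0.967), a subunit of the vacuolar proton pump, BC004004 (0.965), Ndufab1 (0.963), the mitochondrial acyl carrier protein, and Cox7a2 (0.962), a cytochrome oxidase subunit. Likeness of this kind was not limited to the named genes: 353 of the 5698 genes compared were above 0.8, beside a median of 0.28.

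**Figure D4:**
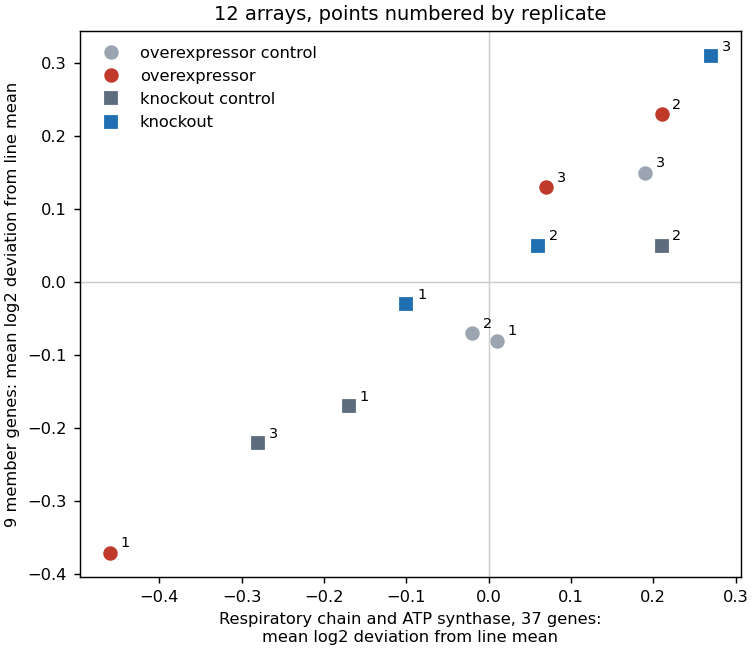
Mean log2 deviation of the 9 member genes (vertical axis) against that of 37 respiratory chain and ATP synthase genes (horizontal axis) on each of the 12 arrays, numbered by replicate, with circles for the overexpressor line and squares for the knockout line. The arrays lie along a rising diagonal from overexpressor 1 (-0.46 and -0.37) to knockout 3 (0.27 and 0.31). Arrays labelled as mutants and controls are mixed along it in each line, in the knockout line through control 2.

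The rest of the pathway was described through lists chosen by function. None of the listed genes passed the test at a limma adjusted p under 0.05 in either comparison. Of all tested genes, 28.7% were above 0 in the overexpressor comparison (median -0.075) and 64% in the knockout comparison (median 0.045). Groups did not overlap, with the knockout higher, in 5.62% of tested probe sets. The list counts and single genes below are read beside these values. Of the 11 other subunits of pyruvate dehydrogenase and the cycle, 2 had a log2 fold change above 0 on the overexpressor-labelled arrays (Pdhb, 0.48, and Idh3a, 0.19) with a list median of -0.14, and all 11 in the knockouts with a median of 0.22. The overexpressor direction rested on 1 array: without overexpressor 1, 9 of the 11 were above 0 and the median was 0.09. In the knockouts the median was 0.16 without control 3, with 10 of 11 above 0, and 0.39 without control 2. Idh3a, the catalytic subunit that works with Idh3g, read 339, 317 and 318 in the knockouts against 208, 276 and 244, a log2 fold change of 0.38 (SE 0.22, limma adjusted p = 1.0). Like Idh3g, its knockout and control arrays did not overlap.

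The kinases that phosphorylate and inhibit Pdha1 were represented by Pdk1, Pdk3 and Pdk4. Pdk1 averaged 344 on the overexpressor-labelled arrays against 265 in the controls, which is 0.32 on the log2 scale (SE 0.20, limma adjusted p = 0.913), and 214 in the knockouts against 264 (-0.23, SE 0.20, limma adjusted p = 1.0). Pdk4, which is known to rise with fasting, averaged 599 against 537 and 688 against 594, with log2 fold changes of 0.14 and 0.13 (SE 0.29 each). Pdk3 gave -0.32 and 0.12. The phosphatases of the complex were not among the tested genes.

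Of 6 genes for pyruvate supply and carboxylation, 4 were above 0 on the overexpressor-labelled arrays (median 0.06) and 5 in the knockouts (median 0.21). Pcx, pyruvate carboxylase, which refills the cycle with oxaloacetate, read 1262, 2449 and 2101 on the overexpressor-labelled arrays against 1003, 1044 and 1816, a log2 fold change of 0.58 (SE 0.30, unadjusted p 0.0805, limma adjusted p = 0.913). Its low arrays were overexpressor 1 and controls 1 and 2, as for Pdha1 and Dlat. Mpc1, a subunit of the mitochondrial pyruvate carrier, averaged 300 ± 14.5 in the knockouts against 246 ± 33.2 (SD, n = 3), with groups that did not overlap and a log2 fold change of 0.26 (SE 0.11, unadjusted p 0.0356, limma adjusted p = 1.0).

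Citrate export, its use in the cytosol and the malate-aspartate shuttle were covered by 8 tested genes. On the overexpressor-labelled arrays 4 were above 0 with a median of -0.01, which became 0.05 and 0.11 after the other 2 scalings. In the knockouts all 8 were above 0 with a median of 0.35, and 7 of 8 after either scaling. Without knockout control 3 they were 6 of 8 with a median of 0.18, and without knockout control 2 all 8 with a median of 0.57. Slc25a10, the mitochondrial dicarboxylate carrier, which exchanges malate and succinate for phosphate, had the smallest unadjusted p among the listed pathway genes in either comparison. It read 928, 1305 and 1074 in the knockouts against 399, 738 and 550.4 in their controls, with no overlap, a log2 fold change of 0.95 (SE 0.31, 95% interval 0.28 to 1.62), an unadjusted p of 0.00897 and a limma adjusted p of 1.0. On the overexpressor-labelled arrays Slc25a10 gave 0.03 (SE 0.31). Acly, which splits citrate in the cytosol, gave 0.59 (SE 0.38, limma adjusted p = 0.913) on the overexpressor-labelled arrays and 0.50 (SE 0.38) in the knockouts. Overexpressor control 2 read 1528 for Acly, against 3918 and 4892 on controls 1 and 3.

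The respiratory chain list gave 4 of 37 genes above 0 on the overexpressor-labelled arrays (median -0.13) and 34 of 37 in the knockouts (median 0.14). Without overexpressor 1 the first became 30 of 37 (median 0.08), and without knockout 3 the second became 27 of 37 (median 0.03). The knockout median was 0.06 without control 3 and 0.31 without control 2. Leaving out single arrays therefore moved these lists in the same directions as the members. In the knockouts the member median was 0.164 without knockout 3, above the 0.03 of the respiratory chain list.

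Markers of other cell types were read on the same arrays. The summed intensity of the 6 tested skeletal muscle markers was 6432 on knockout 3 and 1819 to 3543 on the other 5 arrays of that line, with Acta1 at 3781 and Tnnt3 at 1020.2 on knockout 3, where Ckm was at 69.7, the lowest of the line. In the overexpressor line the same sum ran from 1490 on overexpressor 1 to 3863 on overexpressor 3. Knockout 3 also held the highest Idh2, Idh3g and Fh1 values of its line, and the part of muscle RNA in them was not tested. Without knockout 3, Idh2, Idh3g, Dld and Fh1 gave 0.16, 0.17, 0.17 and 0.04. The summed intensity of the 10 adipocyte markers was lowest on overexpressor 1, at 30820, against 34320 to 40660 on the other arrays of its line. On the overexpressor-labelled arrays all 9 fibroblast markers were below 0 (median -0.58), with sums of 18040 to 22530 against 21320 to 31400 in the controls. All 8 macrophage markers were below 0 (median -0.30), with sums of 4529 to 4906 against 8548, 5776 and 3949 on controls 1, 2 and 3. The macrophage sum of control 3 was thus below that of every overexpressor-labelled array. All 9 endothelial markers (median -0.26) and all 6 smooth muscle markers (median -0.45) were also below 0 there. The endothelial markers were 6 of 9 after quantile normalization, and their sums were 3859 to 5105 against 4696 to 5586. Of all tested genes, 28.7% were above 0 in that comparison, with a median of -0.075. In the knockouts the fibroblast median was -0.13, the macrophage median 0.02 and the endothelial median -0.01, while all 6 smooth muscle markers were below 0 (median -0.35). Smooth muscle sums were 8467 to 9520 on the overexpressor arrays and 8413 to 15710 on their controls, and 11510 to 14090 on the knockout arrays and 12470 to 18530 on theirs. The 5 brown and beige fat markers, which mark cells rich in mitochondria, summed to 825.9 on overexpressor 1 and to 1378 to 4156 on the other arrays of the line. They summed to 1176 on knockout control 1 against 3377 to 4882 on the other arrays of the knockout line. Their mean log2 deviation correlated with that of the members at 0.68, and at 0.45 without the 2 arrays farthest from the list's own median. The part of these markers in the member values was not tested.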

How the data were processed

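Total RNA of perigonadal fat was measured on 12 arrays, 1 per mouse, in 4 groups of 3. Per the labels, Qiagen RNeasy columns were used for extraction and biotin for labelling on Affymetrix arrays. The authors deposited an intensity, not logged, for every probe set on every array. How these were summarised, scaled and corrected for background is not given in the sources used here. Arrays have no read depth, and their number limits the precision.

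Groups came from the sample titles, because the genotype field gives controls the same entry as mutants. Array medians spanned 0.2 on the log2 scale, under the limit of 0.5 set for further normalization, so the values were used as deposited. The logarithm was log2(intensity + 36.92), where the added value is the table's 10th percentile, which understates changes of dim probe sets. The dimmest 40% of probe sets by 12-array mean (4968) were not tested. The 4 group means were fitted on all 12 arrays by limma 3.58.1 under R 4.3.3, using lmFit and a trended eBayes (degrees of freedom: 8 residual, 4.27 prior), and p-values were adjusted by Benjamini-Hochberg with a threshold of 0.05. The fit was tested on simulated data. Arrays of a group shared at most 4 identical values above the floor, and each counted as 1 replicate.

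Gene symbols came from the platform annotation (1 symbol for 10833 probe sets) and were updated by gene ID against RefSeq GRCm38.p6 for 10817 of them, and the brightest tested probe set stood for a gene in medians. Promoter sequences are those of RefSeq on that assembly. Named were all members with every probe set, up to 4 genes with the smallest p per pathway list and comparison of which some are given, Slc2a4, and the 5 genes most like the member mean; Pdhb's correlations and those with Slc2a4 were added after the values were seen. The members, lists and alternatives were chosen with earlier results of these data known. Alternatives were constants of 1 and 85.57 (the 25th percentile), subtraction of array medians, quantile normalization within a line, no filter or a filter at 60%, a fit of the line's own 6 arrays, a replicate block, the mean of a gene's probe sets, and leaving arrays out. Plots used matplotlib 3.10.9 under Python 3.11.15.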

Additional observations from a re-analysis of the deposited data

How the results depend on the processing

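No member was called in either comparison or in their difference under any setting run, with 197, 197 and 188 values and lowest limma adjusted p of 0.056, 0.841 and 0.61. Of the 29 member values that changed sign, most were small values of the overexpressor comparison. Subtraction of array medians turned Fh1 to 0.025, and quantile normalization turned Dld to 0.045, Cs to 0.017 and Fh1 to 0.089. Without overexpressor 1 and overexpressor control 3, Dld was 0.264, Cs 0.209, Idh3g 0.173, Fh1 0.099 and Mdh2 0.136; without the 2 dimmest arrays these were 0.184, 0.127, 0.10, 0.043 and 0.066. Both removals were chosen after seeing the data. Leaving out single arrays gave -0.229 to 0.184 for Dld, -0.192 to 0.127 for Cs, -0.258 to 0.10 for Idh3g, -0.105 to 0.043 for Fh1 and -0.302 to 0.066 for Mdh2 in the overexpressors, -0.002 to 0.223 for Pdha1 and -0.034 to 0.041 for Mdh1 in the knockouts, and -0.43 to 0.131 for Dlat in the difference. Over all tested probe sets, the 6 calls of the overexpressor comparison became 11 with medians subtracted or quantiles equalised (6 higher and 5 lower each), 1 from its own 6 arrays and 21 without overexpressor 1 and overexpressor control 3, and 3 to 21 without single arrays. The 12 calls of the difference became 1 with no filter, 1 without the 2 dimmest arrays and 1 to 13 without single arrays. With a replicate block on the title numbers, which did not pair the samples (correlations of same-numbered deviations from -0.35 to 0.02), the knockout comparison made 0 calls in place of 9 (242 at an unadjusted limma p under 0.05) and the difference 1. The cause of these shifts was not tested. Dim probe sets, such as that of Mdh1, are limited by signal over background.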
